A study of Mus musculus with 12 samples.

Results

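Oxidative phosphorylation genes were examined in the mouse mammary carcinoma line 4T1 by RNA sequencing after depletion of ribosomal RNA. Members were chosen by gene symbol. Symbols had to start with mt-Nd, mt-Co, mt-Cytb or mt-Atp for the mitochondrial genome, or with Nduf, Sdh, Uqcr, Cox4 to Cox8 or Atp5 for the nuclear genome. Among the 39017 genes counted, 109 matched, and 1 pseudogene symbol was dropped. The remaining 108 members comprised 13 mitochondrial-encoded and 95 nuclear-encoded genes. The nuclear members were 38 of complex I, 4 of complex II, 8 of complex III, 18 of complex IV, 18 of complex V and 9 assembly factors with Ndufaf or Sdhaf symbols. The mitochondrial members were 7 of complex I, 1 of complex III, 3 of complex IV and 2 of complex V.

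A few symbols carry an older name. Ndufa4, counted here with complex I by its prefix, is now known as a subunit of complex IV. Atp5sl, counted here with complex V by its prefix, is listed as Dmac2 in GENCODE M21, and Atp5l2 is listed there as a pseudogene.

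There were 4 groups of 3 libraries. Tumors labelled POGZ KO and control tumors titled VC were grown from this line, which the labels call triple-negative breast cancer. Per the labels, 4T1 cells were placed in the mammary fat pad of BalbC mice of 8 weeks, and tumors were taken after 28 days and flash frozen. Cultures labelled POGZ KO and cultures titled VC grew in DMEM with 10% FBS to 75% confluency. The VC samples carry the genotype label POGZ WT. The labels do not say whether the libraries of a culture group came from separate cultures or clones, so the p-values measure only the spread between these samples, which may be technical.

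Oxidative phosphorylation makes ATP in the inner mitochondrial membrane. Complexes I and II take electrons from NADH and succinate, complex III passes them to cytochrome c, and complex IV passes them to oxygen. Complexes I, III and IV pump protons, and complex V, the ATP synthase, uses the proton gradient to make ATP. Complex II is wholly nuclear-encoded, while the other complexes join subunits of both genomes. The mitochondrial genes are transcribed as long polycistronic RNAs, whereas each nuclear subunit has its own promoter.

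Total counts ran from 12128993 to 13043831 in KO-labelled tumors and from 4712001 to 8338828 in VC tumors. They ran from 14724518 to 21863223 over all cultures. Pogz, the gene named as ablated, had 131, 106 and 84.5 CPM (counts scaled to the library total) in KO-labelled tumors, against 86.0, 103 and 109 CPM in VC tumors. It had 68.4, 67.8 and 68.6 CPM in KO-labelled cultures, against 50.9, 52.0 and 48.1 CPM in VC cultures. Pogz RNA was therefore higher in every culture labelled KO than in every VC culture, against the label, and its tumor groups overlapped. A whole-gene count says nothing of whether the protein was lost, and every direction below follows the labels.

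Epithelial markers, which do not by themselves identify 4T1 cells, were read in all groups. The summed level of 6 epithelial genes was 1586 to 1872 CPM in KO-labelled tumors, 1739 to 2129 CPM in VC tumors, 3341 to 3426 CPM in KO-labelled cultures and 2949 to 3287 CPM in VC cultures. These genes did not move together. Under both labels mean Epcam and Krt14 were higher in tumors than in cultures, and mean Krt7, Krt8, Krt18 and Cdh1 were lower. Host cells were present in the tumors. The summed level of 7 fibroblast genes was 3493 to 6556 CPM in KO-labelled tumors and 2330 to 3785 CPM in VC tumors, against 19.0 to 19.6 CPM in KO-labelled cultures and 27.0 to 30.3 CPM in VC cultures, where Dcn, Lum and Dpt were at 0. The 9 macrophage genes summed to 1067 to 2294 CPM in KO-labelled tumors and 765 to 1606 CPM in VC tumors, against 36.1 to 38.3 CPM in KO-labelled cultures and 46.1 to 49.2 CPM in VC cultures, with Adgre1 and Ms4a7 at 0. In these bulk samples fewer cells of a type and less RNA per cell cannot be told apart. System cannot be told apart from count table or sequencing run either, since tumors and cultures were deposited in separate tables.

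Mitochondrial genes have copies in the nuclear genome, and a stretch of mouse chromosome 1 holds copies of several members. The starts of 2 members and their annotated copies are shown because their counts differed so widely, and a window of mt-Co1 shows where its copy departs from it. Sequences are from GENCODE M21 transcripts on GRCm38, written 5′ to 3′ on the strand of the gene, with capitals at positions that differ. The mitochondrial windows are chrM:7013-7072 for mt-Co2, chrM:9877-9936 for mt-Nd4l and chrM:6381-6440 for mt-Co1, all on the plus strand. The copies lie on the minus strand of chromosome 1, at chr1:24615506-24615565 for Gm28661, chr1:24612641-24612700 for Gm10222 and chr1:24616138-24616197 for Gm29216.
mt-Co2: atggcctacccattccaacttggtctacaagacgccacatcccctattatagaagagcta
Gm28661: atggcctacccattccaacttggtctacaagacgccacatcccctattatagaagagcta
mt-Nd4l: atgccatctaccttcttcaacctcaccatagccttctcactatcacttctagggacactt
Gm10222: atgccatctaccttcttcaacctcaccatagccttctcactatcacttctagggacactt
mt-Co1: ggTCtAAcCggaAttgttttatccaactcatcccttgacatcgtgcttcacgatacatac
Gm29216: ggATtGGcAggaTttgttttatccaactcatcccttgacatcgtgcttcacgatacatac

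The copies Gm28661 of mt-Co2, Gm10925 of mt-Atp6 and Gm28437 of mt-Co3 were identical to their mitochondrial genes over 681, 678 and 783 aligned bases. Gm28438 matched mt-Nd3 at 344 of 345 bases, Gm10222 matched mt-Nd4l at all 294, and Gm28439 matched mt-Nd4 at all 876. Gm29216 matched mt-Co1 at 486 of 492 bases, with 6 mismatches, all of them in the window above. Counted as stretches of 50 bases also found in another annotated transcript, mt-Co2 shared 100% of its length, mt-Co3 99.9%, mt-Atp6 99.5%, mt-Nd4l 98.8% and mt-Nd3 98.0%. mt-Nd4 shared 62.2% and mt-Co1 51.1%, mt-Nd2 shared 8.19% and mt-Nd5 7.61%. mt-Nd1, mt-Nd6, mt-Cytb and mt-Atp8 shared none.

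The 4 members mt-Co2, mt-Atp8, mt-Atp6 and mt-Co3 had 0 to 5 counts in every one of the 12 libraries. These encode subunits 2 and 3 of cytochrome oxidase and 2 subunits of the ATP synthase, which all aerobic mouse cells use. They lie side by side, and an unbroken run of 8 of the 37 mitochondrial genes, with the tRNA genes mt-Ts1, mt-Td, mt-Tk and mt-Tg among them, was at 0 to 5 counts. The neighbours on either side were not low in the same way. mt-Co1 had 50230 to 155907 counts and mt-Nd3 had 221 to 1480 counts. mt-Nd4l, with an identical copy over nearly its whole length, had 8468 to 20605 counts, and mt-Atp8 had at most 5. mt-Atp8 shared no stretch with an annotated transcript, but genome sequence outside annotated transcripts was not searched for copies. How multi-mapping reads were counted is not given in the sources used here, and the part of shared sequence in these low counts was not tested. The 4 genes are listed without levels, and mitochondrial sums below rest in practice on 9 genes.

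In tumors mitochondrial-encoded members took a larger share of the counts than in cultures, and nuclear-encoded members a smaller one. The mitochondrial members summed to 36898, 40572 and 36852 CPM in KO-labelled tumors, against 23675, 27129 and 27286 CPM in KO-labelled cultures. They summed to 40638, 35834 and 39589 CPM in VC tumors, against 26721, 28565 and 23211 CPM in VC cultures. All 6 tumors lay above all 6 cultures. The nuclear members summed to 4376, 4166 and 4256 CPM in KO-labelled tumors, against 7149, 7224 and 7260 CPM in KO-labelled cultures. They summed to 4378, 3500 and 3929 CPM in VC tumors, against 7525, 7401 and 7634 CPM in VC cultures. Here all 6 tumors lay below all 6 cultures.

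The ratio of mitochondrial to nuclear member counts does not depend on library scaling. It was 8.94 ± 0.699 in KO-labelled tumors and 9.87 ± 0.511 in VC tumors, against 3.61 ± 0.257 in KO-labelled cultures and 3.48 ± 0.414 in VC cultures (SD, n = 3 each). The tumor minus culture difference in mean log2 ratio was 1.31 for KO-labelled and 1.51 for VC samples, with pooled SDs of 0.11 and 0.13. Between labels the log2 ratio differed by -0.14 in tumors and 0.06 in cultures, KO-labelled minus VC, with pooled SDs of 0.09 and 0.14. No test was run on these sums, which are scores over chosen members. Over the 45 nuclear and 4 mitochondrial members that shared no 50-base stretch with another transcript, the ratio was 6.73 to 8.29 in KO-labelled tumors and 8.45 to 8.83 in VC tumors, against 3.32 to 3.81 in KO-labelled cultures and 3.03 to 3.95 in VC cultures.

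**Figure D1:**
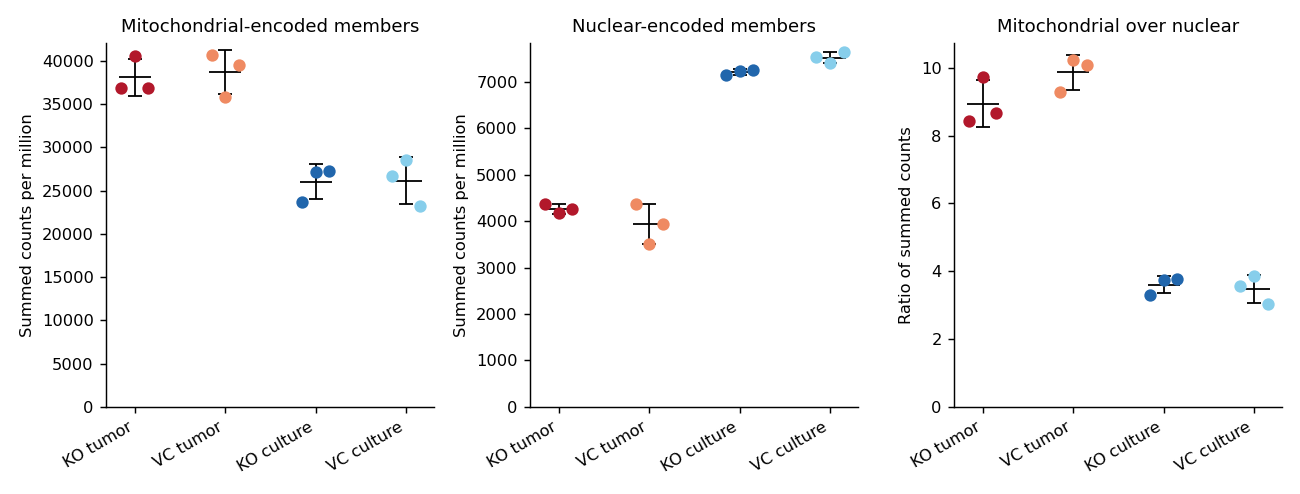
Summed CPM of the 13 mitochondrial-encoded members (left), of the 95 nuclear-encoded members (middle) and the ratio of the summed counts (right), with 1 point per library for KO- and VC-labelled tumors and cultures, a bar for the mean and whiskers for the SD (n = 3). Tumor ratios were 8.43 to 10.2 and culture ratios 3.04 to 3.86.

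Other RNAs of the mitochondrial genome differed among themselves. Its tRNA genes summed to 286 ± 24.3 CPM in KO-labelled tumors and 373 ± 106 CPM in VC tumors, against 565 ± 60.6 CPM in KO-labelled cultures and 553 ± 43.6 CPM in VC cultures (SD, n = 3 each). The ribosomal RNA mt-Rnr1 was at 1434 ± 386 CPM in KO-labelled tumors and 2035 ± 2047 CPM in VC tumors, against 654 ± 34.1 CPM in KO-labelled cultures and 1017 ± 268 CPM in VC cultures (SD, n = 3 each). KO-labelled tumors lay above KO-labelled cultures without overlap, whereas VC tumors, from 472 to 4352 CPM, overlapped VC cultures. The ribosomal RNA mt-Rnr2 was at 5920 ± 1307 CPM in KO-labelled tumors and 6624 ± 2744 CPM in VC tumors, against 5471 ± 1384 CPM in KO-labelled cultures and 5335 ± 2523 CPM in VC cultures (SD, n = 3 each), within the spread. Ribosomal RNA had been depleted from these libraries.

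Among the single mitochondrial genes, mt-Co1, mt-Nd4, mt-Nd4l, mt-Nd5 and mt-Nd6 rose in tumors under both labels, and mt-Nd1 gave values near 0. Of these, mt-Nd4l, mt-Nd4 and mt-Co1 shared 98.8%, 62.2% and 51.1% of their length with other annotated transcripts, so their counts are uncertain. Of the 3 tested members that shared none, 2 were called higher in KO-labelled and 1 in VC samples. mt-Co1, the catalytic subunit of complex IV, was at 9006, 11952 and 10860 CPM in KO-labelled tumors, against 5523, 6444 and 6438 CPM in KO-labelled cultures. In VC tumors it was at 10660, 11731 and 10663 CPM, against 6386, 6815 and 5568 CPM in VC cultures. All tumors exceeded all cultures. The log2 fold change was 0.84 ± 0.13 for KO-labelled samples (SE; edgeR's quasi-likelihood test, Benjamini-Hochberg adjusted p = 0.0017) and 0.82 ± 0.15 for VC samples (adjusted p = 0.0020).

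mt-Nd4, a membrane subunit of complex I, was at 6318, 6351 and 5750 CPM in KO-labelled tumors, against 3234, 3524 and 3502 CPM in KO-labelled cultures. In VC tumors it was at 6564, 5202 and 6729 CPM, against 3322, 3582 and 2966 CPM in VC cultures. The groups did not overlap, and its log2 fold changes of 0.89 ± 0.09 in KO-labelled and 0.91 ± 0.16 in VC samples (SE; edgeR, adjusted p = 0.00032 and 0.0014) were the highest of the 9. mt-Nd1, another membrane subunit of complex I, was at 4380, 4885 and 4354 CPM in KO-labelled tumors, against 4211, 4876 and 5053 CPM in KO-labelled cultures. Its values overlapped between tumor and culture under both labels, with log2 fold changes of -0.01 ± 0.11 and 0.04 ± 0.15 (SE; edgeR, adjusted p = 0.97 and 0.84).

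The ratio of mt-Nd1 to mt-Nd4 counts was 0.740 ± 0.0408 in KO-labelled tumors and 0.802 ± 0.146 in VC tumors, against 1.38 ± 0.0707 in KO-labelled cultures and 1.44 ± 0.0561 in VC cultures (SD, n = 3 each). The balance of mt-Nd1 and mt-Nd4 counts therefore differed between systems, with no overlap between tumor and culture libraries. mt-Nd4 shared 62.2% of its length with another annotated transcript, so this ratio carries the uncertainty of its counts. The RNA integrity of these libraries is not given in the sources used here.

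edgeR called 61.3% of all genes tested in KO-labelled tumors against KO-labelled cultures, 35.3% higher and 26% lower, and 65.2% in VC tumors against VC cultures, 35.7% higher and 29.5% lower (adjusted p under 0.05). Of the 13 mitochondrial members, 6 rose and 1 fell in the KO-labelled comparison, with 2 tested and not called and 4 not tested. In the VC comparison 5 rose and none fell of the 9 tested, where an unadjusted p under 0.05 also gave 5. The 5 called higher under both labels were mt-Co1, mt-Nd4, mt-Nd4l, mt-Nd5 and mt-Nd6. That is 83.3% of the KO-labelled and 100% of the VC calls. The same overlap over all genes is not given here, so these shares are not read as particular to the members. Their log2 fold changes were 0.54 to 0.89 in KO-labelled and 0.67 to 0.91 in VC samples.

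The other mitochondrial members were less even. mt-Cytb, the cytochrome b of complex III, rose in KO-labelled samples by 0.66 ± 0.11 on the log2 scale (SE; edgeR, adjusted p = 0.0021). In VC samples it gave 0.35 ± 0.20 (adjusted p = 0.15), and 0.50 (adjusted p = 0.013) without the tumor titled POGZ_VC_8448, whose 4541 CPM stood below the 7112 and 6523 CPM of the other VC tumors. With 1 library left out it ran from 0.19 to 0.50 in VC samples. mt-Nd3 fell in KO-labelled samples by 0.49 on the log2 scale (SE 0.15; edgeR, adjusted p = 0.028). That call was lost without any 1 of the 3 KO-labelled cultures, with adjusted p of 0.056 without replicate 1, 0.089 without replicate 2 and 0.085 without replicate 3. In VC samples it gave -0.51 ± 0.30 (adjusted p = 0.17), and -0.93 (adjusted p = 0.018) without POGZ_VC_8447. With 1 library left out it ran from -0.93 to -0.22 in VC samples. mt-Nd2 gave 0.28 ± 0.11 in KO-labelled and 0.24 ± 0.15 in VC samples (SE; edgeR, adjusted p = 0.058 and 0.18). mt-Nd6 lies on the strand opposite to the other members, and whether counting used strand is not given, so reads of its strand partner cannot be told apart.

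**Figure D2:**
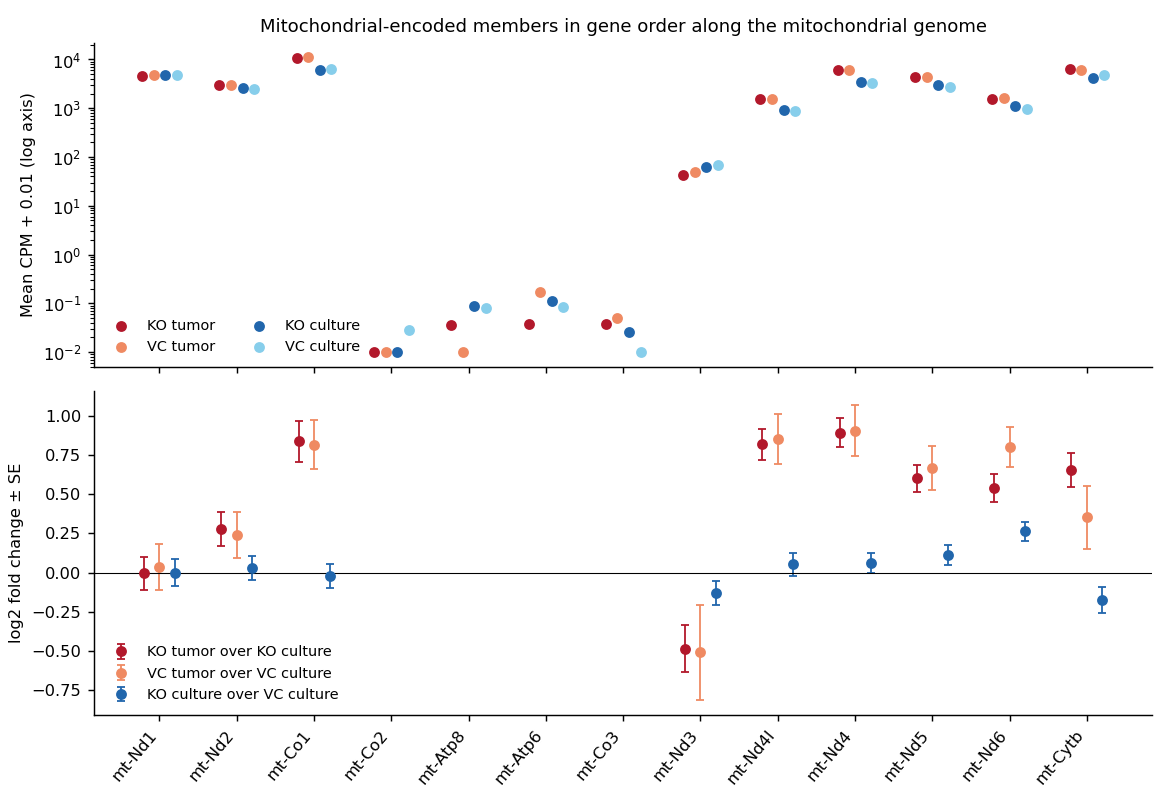
The 13 mitochondrial-encoded members in gene order: mean CPM per group plus 0.01 on a log axis (top), and log2 fold change ± SE from edgeR (bottom) for KO-labelled tumors over KO-labelled cultures, VC tumors over VC cultures and KO-labelled over VC cultures. The 4 genes from mt-Co2 to mt-Co3 had at most 5 counts and no fold change, and mt-Nd1 lay near 0 in all 3 comparisons.

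Nuclear-encoded members moved the other way. In KO-labelled tumors 52 of the 95 fell and 6 rose, 30 were tested and not called, and 7 did not pass the filter on low counts. In VC tumors 63 fell and 5 rose, 20 were tested and not called, and 7 were filtered out. The shares of 59.1% and 71.6% of those tested that fell compare with the 26% and 29.5% of all genes given above. The median log2 fold change of the tested nuclear members was -0.51 in KO-labelled and -0.79 in VC samples, against 0.13 and 0.07 for all genes tested. Of the members that fell, 50 did so under both labels, 96.2% of the KO-labelled and 79.4% of the VC calls. None was called in opposite directions. The overlap over all genes is not given here either, so this overlap is not read as particular to the members.

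Complex I oxidises NADH. Of the 38 nuclear members counted with it by prefix, 23 fell and 2 rose in KO-labelled tumors, and 29 fell and 1 rose in VC tumors. Ndufa4l2, a paralog of Ndufa4 that passed the filter through the tumors, was the 1 in VC and 1 of the 2 in KO-labelled tumors. Ndufa12, an accessory subunit, was at 17.4, 15.1 and 13.8 CPM in KO-labelled tumors, against 41.5, 47.6 and 50.0 CPM in KO-labelled cultures. The groups lay far apart, and its fall of 1.54 on the log2 scale (SE 0.13; edgeR, adjusted p = 0.00017) was the largest of complex I in that comparison. In VC samples Ndufa5, an accessory subunit of the peripheral arm, fell most in complex I, and Ndufb9, one of the membrane arm, fell nearly as far. Their log2 fold changes were -1.35 ± 0.11 and -1.26 ± 0.10 (SE; edgeR, adjusted p = 2.5e-05 and 2.1e-05).

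Complex II links the respiratory chain to the citric acid cycle. Of its 4 members Sdha, Sdhb and Sdhd fell under both labels, while Sdhc gave -0.22 in KO-labelled and -0.34 in VC samples on the log2 scale (edgeR, adjusted p = 0.097 and 0.11). Sdhb, the iron-sulfur subunit, was at 39.8, 39.8 and 48.4 CPM in KO-labelled tumors, against 72.2, 74.1 and 67.9 CPM in KO-labelled cultures. In VC tumors it was at 35.2, 28.2 and 42.1 CPM, against 101, 94.4 and 100.3 CPM in VC cultures. Tumors lay below cultures throughout, with log2 fold changes of -0.69 ± 0.11 and -1.49 ± 0.15 (SE; edgeR, adjusted p = 0.0019 and 8.1e-05).

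Complex III had the highest share of falling members, 7 of 8 under both labels. Uqcrc1, a core subunit, was at 60.8, 84.2 and 81.2 CPM in KO-labelled tumors, against 199, 212 and 204 CPM in KO-labelled cultures. In VC tumors it was at 80.4, 70.6 and 67.0 CPM, against 216, 213 and 222 CPM in VC cultures. All tumor values were below all culture values, and the log2 fold changes were -1.40 ± 0.13 and -1.58 ± 0.09 (SE; edgeR, adjusted p = 0.00021 and 6.1e-06). Uqcrq, a small subunit, fell by 1.42 in KO-labelled and by 1.78 in VC samples on the log2 scale (edgeR, adjusted p = 0.00020 and 0.00011), and no member fell further in VC samples.

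Uqcrh, the hinge protein of complex III, was the exception. In KO-labelled samples it rose by 0.63 ± 0.16 on the log2 scale (SE; edgeR, adjusted p = 0.013), a call lost without KO-labelled culture 2 or 3 (adjusted p = 0.060 and 0.056). In VC samples it gave -0.02 ± 0.14 (adjusted p = 0.89).

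Of the 18 nuclear members of complex IV, 12 were tested. Among them 7 fell and 2 rose in KO-labelled tumors, and 8 fell and 2 rose in VC tumors. Cox5a, which pairs with the core of the enzyme, was at 35.4, 34.1 and 32.7 CPM in VC tumors, against 86.7, 93.7 and 113 CPM in VC cultures. In KO-labelled tumors it was at 27.1, 53.9 and 58.7 CPM, against 94.6, 89.5 and 87.8 CPM in KO-labelled cultures, with POGZ_KO_8454 below the other tumors of that label. Its fall was 0.91 on the log2 scale in KO-labelled (SE 0.27; edgeR, adjusted p = 0.022) and 1.52 in VC samples (SE 0.12; adjusted p = 2.5e-05). Cox6a1, the widely expressed form of subunit 6a, fell by 1.06 and by 1.49 (edgeR, adjusted p = 0.00011 and 0.00010). Cox7a2l, a factor that helps complexes III and IV associate, rose by 0.59 ± 0.17 and 0.77 ± 0.14 on the log2 scale (SE; edgeR, adjusted p = 0.021 and 0.0016).

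Complex V had the largest drop in summed CPM, in which Atp5b weighed heavily. Its sum was 1555 CPM in KO-labelled and 1438 CPM in VC tumors, against 3125 and 3244 CPM in the cultures. The median log2 fold change of its members, -0.45 in KO-labelled and -0.60 in VC samples, was the smallest fall of complexes I to V. Atp5b, the catalytic beta subunit of the ATP synthase, was at 369, 454 and 453 CPM in KO-labelled tumors, against 1387, 1368 and 1374 CPM in KO-labelled cultures. In VC tumors it was at 503, 431 and 449 CPM, against 1532, 1508 and 1563 CPM in VC cultures. Every tumor was far below every culture, with log2 fold changes of -1.65 ± 0.10 and -1.74 ± 0.11 (SE; edgeR, adjusted p = 6.5e-05 and 7.8e-06). Without Atp5b the mean log2 nuclear level was still lower in tumors, by -0.60 for KO-labelled and -0.79 for VC samples, an alternative chosen after seeing the data.

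In all, 9 members counted with complex V by prefix fell and 1 rose in KO-labelled tumors, and 10 fell and 2 rose in VC tumors. Atp5sl, listed as Dmac2, was the 1 that rose in KO-labelled tumors, and Atp5sl and Atp5l were the 2 in VC tumors. Atp5d, the delta subunit of the rotor, fell by 1.13 in VC samples, and Atp5g3, which encodes the membrane ring subunit, fell by 0.96 in KO-labelled samples on the log2 scale (edgeR, adjusted p = 2.9e-05 and 0.00016). Atp5sl rose by 0.84 ± 0.15 and 0.82 ± 0.15 in KO-labelled and VC samples (SE; edgeR, adjusted p = 0.0030 and 0.0019). Atp5l, for the g subunit, was called higher in VC samples (0.99 ± 0.22 on the log2 scale; edgeR, adjusted p = 0.0046). It shared 84.8% of its transcript with other annotated genes, so its counts are uncertain.

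Of the 9 assembly factors, which help build complexes I and II and are not part of them, 3 fell in KO-labelled and 6 in VC tumors, and none rose. The share of 33.3% in KO-labelled tumors was near the 26% of all genes that fell. In VC tumors 66.7% compare with 29.5% of all genes. No further assembly factor was below an unadjusted p of 0.05 in KO-labelled samples. Ndufaf2 and Ndufaf4, both for complex I, fell by 1.39 and 1.11 in KO-labelled samples, and by 1.34 and 1.32 in VC samples on the log2 scale (edgeR, adjusted p between 2.9e-05 and 0.00050).

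**Figure D3:**
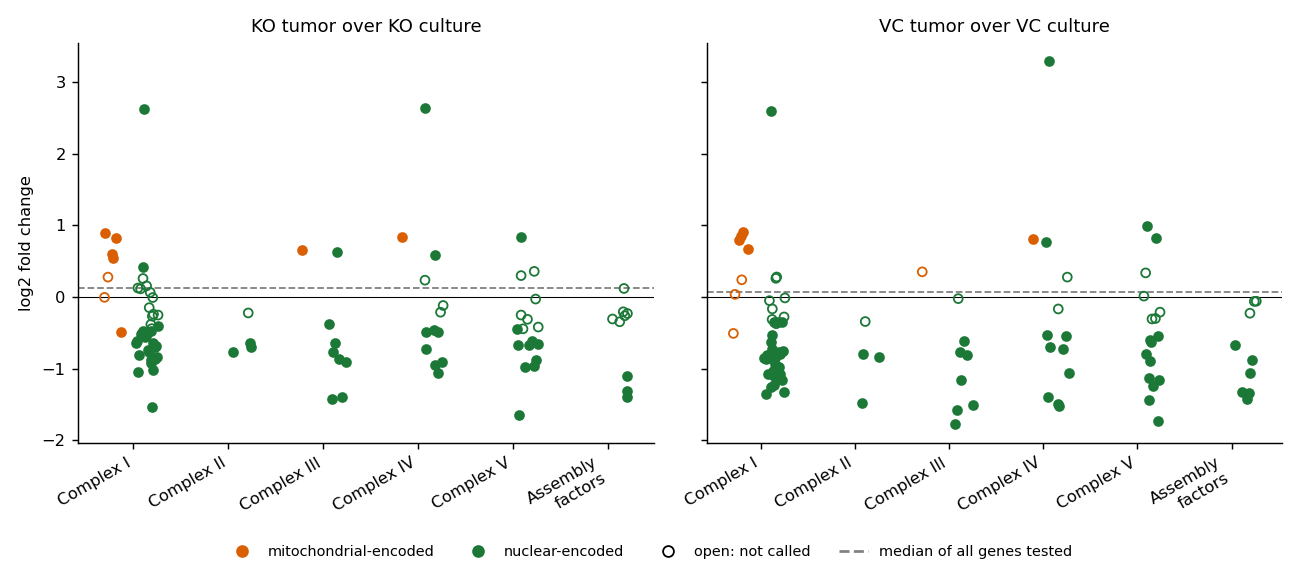
The log2 fold change of each tested member, KO-labelled tumors over KO-labelled cultures (left) and VC tumors over VC cultures (right), by complex. Each point is a gene, filled where edgeR called it (adjusted p under 0.05), orange for mitochondrial-encoded and green for nuclear-encoded; the dashed line is the median of all genes tested (0.13 left, 0.07 right). Called orange points lie above 0, with mt-Nd3 on the left as the exception, and most filled green points lie below 0.

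Tissue- or condition-specific isoforms were a separate matter. Of the 8 listed, 6 did not pass the filter: Cox6a2, Cox7a1, Cox8b, Cox6b2, Cox7b2 and Cox8c had 0 to 11 counts per library. The first 3 are the heart and muscle forms, and skeletal muscle markers summed to at most 49.6 CPM in KO-labelled and 74.1 CPM in VC tumors. The 2 that passed, Ndufa4l2 and Cox4i2, did so through the tumors, where they were higher, so that their direction among tested genes was fixed by the filter. Ndufa4l2, a paralog of Ndufa4 known as a target of the hypoxia factor HIF1, was at 1.15, 2.61 and 3.28 CPM in KO-labelled tumors, against 0.290, 0.340 and 0.503 CPM in KO-labelled cultures. In VC tumors it was at 2.55, 2.88 and 3.85 CPM, against 0.452, 0.644 and 0.432 CPM in VC cultures. The groups did not overlap. Both genes are among the 6 and 5 nuclear members counted above as higher in KO-labelled and VC tumors, and no test is given for them.

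Cox4i2, the lung and low-oxygen form of subunit 4, had 9, 11 and 11 counts in KO-labelled tumors, against 3, 2 and 2 counts in KO-labelled cultures. It had 6, 7 and 7 counts in VC tumors, against 1, 2 and 2 counts in VC cultures. Every tumor library held more counts than every culture library. Per count sequenced, the summed level was 6.38 times as high in KO-labelled tumors as in KO-labelled cultures. It was 10.7 times as high in VC tumors as in VC cultures. These ratios rest on few counts and are descriptions only, since the direction was fixed by the filter.

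The ubiquitous counterpart Cox4i1 was far more abundant and fell, by 0.46 in KO-labelled and by 0.53 in VC samples on the log2 scale (edgeR, adjusted p = 0.0022 and 0.0010). It is named here after its values were seen, as the partner of Cox4i2. Pericytes are known to express both low isoforms. The 6 pericyte and smooth muscle markers summed to 155 to 212 CPM in KO-labelled tumors and 128 to 171 CPM in VC tumors, against 2.24 to 2.61 CPM in KO-labelled cultures and 2.82 to 4.24 CPM in VC cultures, with Des at 0 in all cultures. Their part in the isoforms' levels was not tested.

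Between genes, levels were compared per kilobase of exon (RPKM, from the exonic lengths of GENCODE M21). In KO-labelled tumors mt-Co1 stood highest at 6865 ± 964 RPKM and in VC tumors at 7132 ± 399.8 RPKM (SD, n = 3 each). In cultures mt-Nd1 stood highest, at 4925 ± 464 RPKM in KO-labelled and 4953 ± 605 RPKM in VC cultures, and mt-Co1 was at 3971 ± 343 RPKM in KO-labelled and 4049 ± 409.9 RPKM in VC cultures (SD, n = 3 each). Atp5b led the nuclear members in both culture groups, at 325 ± 2.32 RPKM in KO-labelled and 362 ± 6.51 RPKM in VC cultures. In tumors it was at 100.4 ± 11.6 RPKM in KO-labelled and 109 ± 8.91 RPKM in VC tumors, and Cox4i1 lay above it at 127 ± 4.80 RPKM in KO-labelled and 124 ± 6.01 RPKM in VC tumors. Atp5b in VC cultures was the highest group mean of any nuclear member, and every mitochondrial member tested other than mt-Nd3 lay above it in all 4 groups.

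Other genes of mitochondrial energy metabolism were read from lists. The citric acid cycle list fell throughout: 16 of 17 genes in KO-labelled and 17 of 17 in VC tumors, with medians of -0.74 and -1.08 against 0.13 and 0.07 for all genes on the log2 scale. Cs, the citrate synthase that starts the cycle, was at 135 CPM in KO-labelled and 145 CPM in VC tumors, against 442 CPM in KO-labelled and 459 CPM in VC cultures on average (log2 fold changes -1.67 ± 0.14 and -1.66 ± 0.09, SE; edgeR, adjusted p = 0.00016 and 4.9e-06). Dlat, of the pyruvate dehydrogenase complex, fell by 1.20 and 1.21 in the KO-labelled and VC samples (edgeR, adjusted p = 6.9e-05 and 1.4e-05).

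Of 33 genes for mitochondrial DNA maintenance, transcription and RNA handling, 17 fell and 4 rose in KO-labelled tumors, and 21 fell and 1 rose in VC tumors. Of all genes tested, 26% fell and 35.3% rose in KO-labelled tumors, and 29.5% fell and 35.7% rose in VC tumors, which is the background of this and the following lists. Lrpprc, which stabilises mitochondrial mRNAs, fell by 0.77 and 1.06, and Mgme1, an exonuclease of mitochondrial DNA, fell by 0.95 and 1.27 on the log2 scale (edgeR, adjusted p between 9.4e-05 and 0.00069). Of 41 further assembly factors and electron carriers, 19 fell and 3 rose in KO-labelled, and 20 fell and 5 rose in VC tumors. Cyc1, the cytochrome c1 of complex III, which the symbol rule does not reach, fell by 1.33 and 1.77 (edgeR, adjusted p = 0.00026 and 1.2e-05).

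Of the 13 regulators, 10 were tested in KO-labelled samples, where 3 rose and 1 fell, and 9 in VC samples, where 1 rose and 4 fell. Tfeb, a regulator of lysosome genes, rose by 1.17 and 0.99 on the log2 scale. Pprc1, of the PGC-1 family of coactivators, fell by 0.63 and 1.02 (edgeR, adjusted p between 8.8e-05 and 0.014). Of 25 hypoxia and glycolysis genes 12 rose and 2 fell in KO-labelled tumors, and 11 rose and 7 fell in VC tumors, where 35.7% of all genes rose and 29.5% fell. Vegfa, the angiogenic factor, rose by 1.96 and 2.28 on the log2 scale, and Pdk3, a kinase that inhibits pyruvate dehydrogenase, had log2 fold changes of -1.30 and -1.40 (edgeR, adjusted p between 5.6e-06 and 0.00028).

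KO-labelled tumors were compared with VC tumors. edgeR called 0% of the 17153 genes tested, and no member, of 87 nuclear and 9 mitochondrial tested. At an unadjusted p under 0.05 there were 956 genes and 1 member, and DESeq2 called 66 genes and no member. The log2 fold changes of the nuclear members ran from -0.52 to 0.60 with a median of 0.12, against 0.02 for all genes, and those of the mitochondrial members from -0.17 to 0.07. The member below 0.05 was Cox7b, a nuclear subunit of complex IV, named after its values were seen. It was at 84.8, 78.1 and 68.1 CPM in KO-labelled tumors, against 68.5, 53.5 and 45.0 CPM in VC tumors, so that the groups overlapped by a small margin (log2 fold change 0.48 ± 0.18, SE; unadjusted p = 0.029 and adjusted p = 0.86 by edgeR). Spread between tumors was wide: Cox5a ran from 27.1 to 58.7 CPM within the KO-labelled tumors alone.

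Whether the KO-labelled minus VC difference differed between tumors and cultures was tested as an interaction over all 12 libraries. edgeR called 2.07% of genes, 1.12% higher and 0.95% lower, and 1 member, Ndufa5. It was at 19.2, 18.3 and 26.3 CPM in KO-labelled tumors and 17.6, 16.7 and 18.1 CPM in VC tumors, against 32.0, 28.1 and 29.8 CPM in KO-labelled cultures and 47.5, 42.9 and 43.5 CPM in VC cultures. KO-labelled tumors lay above VC tumors, and KO-labelled cultures below VC cultures, without overlap in either. The interaction was 0.86 ± 0.20 on the log2 scale (SE; edgeR, adjusted p = 0.0499), and its adjusted p ran from 0.0075 to 0.16 over the alternatives tried. With Ndufa5, 12 of the 88 nuclear members tested had an unadjusted p under 0.05. Of the 18419 genes tested 2840 did, so the share among the members was near that of all genes. Sdhb gave 0.74 ± 0.20, Ndufa9, of the peripheral arm of complex I, gave 0.62 ± 0.17, and Uqcr10, a small complex III subunit, gave 0.55 ± 0.16 (SE; edgeR, adjusted p = 0.091, 0.11 and 0.11). DESeq2 called 5 members. No mitochondrial member was called, with values from -0.32 for mt-Nd6 to 0.25 for mt-Cytb, and none had an unadjusted p under 0.05.

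In culture the KO label moved members of both signs. edgeR called 47.9% of all genes between KO-labelled and VC cultures, 23% higher and 24.9% lower. Of the 95 nuclear members 14 rose, 23 fell, 49 were tested and not called, and 9 did not pass the filter. The shares of 16.3% higher and 26.7% lower among those tested were near or under those of all genes. The median log2 fold change was -0.01 for the nuclear members and -0.01 for all genes. Without VC culture 2 the higher calls numbered 9, and without KO-labelled culture 2 or 3 the lower calls numbered 13 and 15. In the fit of all 12 libraries, which share 1 estimate of the spread, 1 nuclear member was called higher and 4 lower.

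By complex, 5 members rose and 9 fell in complex I, 1 fell in complex II, 3 fell in complex III, 1 rose and 3 fell in complex IV, 6 rose and 4 fell in complex V, and 2 rose and 3 fell among the assembly factors. Cox5b, a nuclear subunit of complex IV, changed most. It was at 20.6, 26.0 and 23.7 CPM in KO-labelled cultures, against 42.6, 37.9 and 38.3 CPM in VC cultures. The groups lay well apart, with a log2 fold change of -0.75 ± 0.08 (SE; edgeR, adjusted p = 8.2e-06). Cox8a, the smallest subunit of that complex, fell by 0.37 and Cox7a2l rose by 0.26 (edgeR, adjusted p = 0.00058 and 0.0011).

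The next largest falls were among members counted with complex I by prefix. Ndufa4 was at 89.3, 82.5 and 97.4 CPM in KO-labelled cultures, against 125, 130 and 147 CPM in VC cultures, a fall of 0.57 on the log2 scale (SE 0.07; edgeR, adjusted p = 2.3e-05). Ndufa5 fell by 0.56 and Ndufa9 by 0.47 (edgeR, adjusted p = 1.5e-05 and 2.9e-05). All 3 had KO-labelled cultures below VC cultures without overlap. Sdhb of complex II fell by 0.46, Uqcrh of complex III by 0.38, and the assembly factors Ndufaf6 and Ndufaf4 by 0.49 and 0.44 (edgeR, adjusted p between 5.5e-06 and 0.0018).

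Among the members that rose, Atp5f1, the stator subunit b of the ATP synthase, was at 198, 194 and 194 CPM in KO-labelled cultures, against 150, 144 and 150 CPM in VC cultures. These groups were tight, and its log2 fold change was 0.41 ± 0.04 (SE; edgeR, adjusted p = 3.3e-06). Atp5s, a coupling factor, rose by 0.43, Atp5c1, the gamma subunit of the rotor, by 0.21, and Ndufa8, an accessory subunit of complex I, by 0.36 (edgeR, adjusted p = 0.0098, 0.00040 and 0.00015). Atp5e, the epsilon subunit, gave 0.39 ± 0.13 (SE; edgeR, adjusted p = 0.025), a call lost without KO-labelled culture 1 (adjusted p = 0.066) and without VC culture 1 or 2 (adjusted p = 0.068 and 0.093).

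Called members were set beside the chromosome they lie on. The median log2 fold change of all genes on a chromosome was above 0.2 for chromosomes 2 and 3 (0.25 and 0.33) and below -0.2 for chromosomes 4 and 6 (-0.28 and -0.45). Of the 10 tested nuclear members on chromosomes 2 and 3, 7 rose and none fell. Of the 10 on chromosomes 4 and 6, 9 fell and none rose. On the other chromosomes, where the remaining calls lie, 7 of 66 rose and 14 fell, some of them against the sign of their chromosome's median. Over all chromosomes 23% of genes tested rose and 24.9% fell. The share of all genes called on each chromosome is not given here, so these counts are not read as particular to the members. Ndufa4, Ndufa5 and Ndufa9 lie on chromosome 6, Sdhb, Uqcrh, Ndufaf4 and Ndufaf6 on chromosome 4, Atp5f1 and Ndufb5 on chromosome 3, and Atp5c1, Atp5e, Ndufa8 and Ndufaf1 on chromosome 2.

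When the median shift of its own chromosome was subtracted for every gene, 8 nuclear members were called higher and 12 lower. The share of all genes called under this setting is not given here, so these counts are not read as particular to the members. Cox5b on chromosome 1 stayed at -0.63, Cox8a on chromosome 19 at -0.32, Cox7a2l on chromosome 17 at 0.34 and Atp5s on chromosome 12 at 0.43 on the log2 scale (edgeR, adjusted p between 5.2e-05 and 0.012). Ndufa4, Ndufa5 and Ndufa9 then gave -0.11, -0.11 and -0.02, and Atp5f1 gave 0.08, none of them called (edgeR, adjusted p = 0.22, 0.20, 0.84 and 0.12). On chromosome 4, Sdhb and Ndufaf4 kept their calls at -0.18 and -0.16 (edgeR, adjusted p = 0.0078 and 0.022). Uqcrh and Ndufaf6 gave -0.11 and -0.21 and were not called (edgeR, adjusted p = 0.14 and 0.13).

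**Figure D4:**
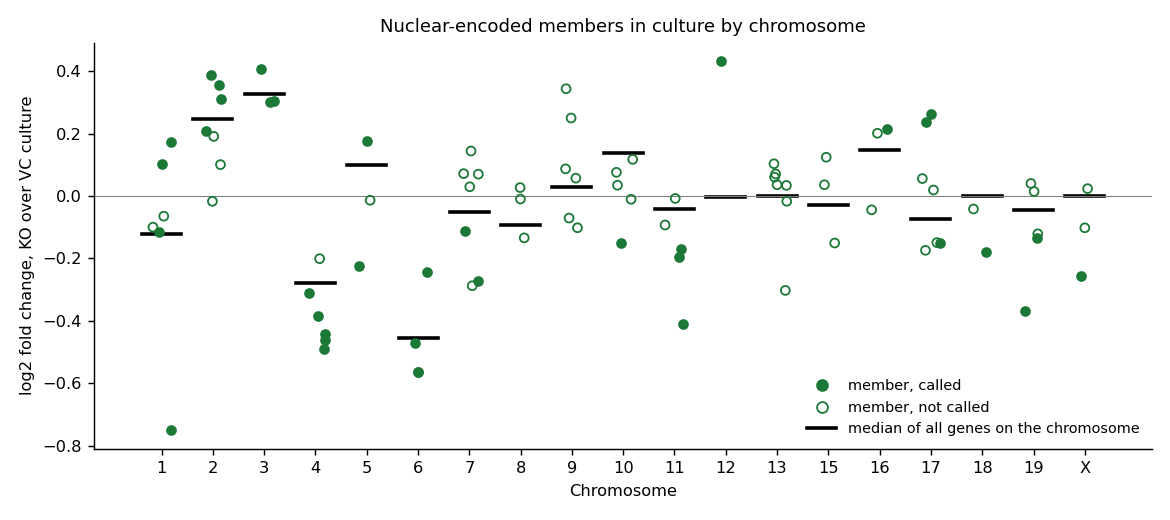
The log2 fold change of each tested nuclear-encoded member in KO-labelled over VC cultures, by chromosome; filled points were called by edgeR, and black bars give the median of all genes on that chromosome. Members on chromosomes 2 and 3 lie mostly above 0 and those on chromosomes 4 and 6 below 0, with the bars at 0.25, 0.33, -0.28 and -0.45, while Cox5b on chromosome 1 lies apart from its bar at -0.12.

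Of the 9 mitochondrial members tested in culture, 1 rose and none fell, and 1 had an unadjusted p under 0.05. mt-Nd6, the only subunit encoded on the opposite strand, was at 1055, 1164 and 1159 CPM in KO-labelled cultures, against 878, 1040 and 909 CPM in VC cultures. All 3 KO-labelled cultures were above all 3 VC cultures, and the log2 fold change was 0.26 ± 0.06 (SE; edgeR, adjusted p = 0.0032). The call was lost in the fit of all 12 libraries (0.26, adjusted p = 0.17). The ratio of mt-Nd6 to mt-Nd5 counts was 0.383 ± 0.0025 in KO-labelled cultures and 0.346 ± 0.0192 in VC cultures, and 0.367 ± 0.0213 in KO-labelled tumors and 0.379 ± 0.0195 in VC tumors (SD, n = 3 each). The order of the labels thus differed between systems, and the tumor values overlapped.

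mt-Cytb was at 3729, 4413 and 4397 CPM in KO-labelled cultures, against 4934, 5193 and 4110 CPM in VC cultures, which overlapped (log2 fold change -0.18 ± 0.08, SE; edgeR, adjusted p = 0.10). Relative to mt-Nd4 it was at 1.22 ± 0.0583 in KO-labelled cultures and 1.44 ± 0.0505 in VC cultures, where the libraries did not overlap, and at 1.04 ± 0.0110 in KO-labelled tumors and 0.975 ± 0.105 in VC tumors, where they did (SD, n = 3 each). The mt-Nd4 counts in this ratio are uncertain for the shared sequence given above. The other 7 mitochondrial members had log2 fold changes from -0.13 to 0.11. mt-Cytb was called lower without VC culture 3 (-0.26, adjusted p = 0.0034) and mt-Nd3 without VC culture 1 (-0.20, adjusted p = 0.022), and mt-Nd5 was called higher without VC culture 2 (0.19, adjusted p = 0.027). With 1 library left out, mt-Cytb ran from -0.26 to -0.088, mt-Nd3 from -0.20 to -0.025 and mt-Nd5 from 0.063 to 0.19.

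The lists in culture are read against the 23% of all genes that rose and the 24.9% that fell. Of 25 hypoxia and glycolysis genes 20 fell and 1 rose, with a median of -0.47 against -0.01 for all genes on the log2 scale. Hk2, which starts glycolysis, fell by 0.91 and Car9, a carbonic anhydrase induced by hypoxia, by 2.59 (edgeR, adjusted p = 2.8e-09 each). They lie on chromosomes 6 and 4, where the medians of all genes were -0.45 and -0.28. The lists are not given here with chromosome medians taken out, and the part of the chromosomes in them was not tested. In the citric acid cycle list 7 of 17 fell and 1 rose. Suclg1 and Suclg2, of succinyl-CoA synthetase, both on chromosome 6, fell by 0.48 and 0.52 on the log2 scale (edgeR, adjusted p = 1.9e-06 and 1.2e-06). Of the 33 genes for mitochondrial DNA and RNA 4 rose and 7 fell, and of the 41 further assembly factors 8 rose and 8 fell. Among the regulators 3 rose and 5 fell of the 10 tested, and Ppargc1b, of the PGC-1 coactivators, fell by 1.21 (edgeR, adjusted p = 2.1e-06). Ppargc1a was near 0, with means of 0.270 CPM in KO-labelled and 0.350 CPM in VC tumors.

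Promoters of nuclear members are known to carry sites for NRF1, a transcription factor of respiratory genes. RefSeq promoters (GRCm38.p6, 250 bases before to 50 after the start) were found for 75 of the 95 nuclear members. The NRF1 motif (GCGC, any base, then TGCGC), searched on both strands, was in 19 of them, or 25.3%, against 5.19% of 27025 genes with a promoter. AAGATGGCG, the YY1 motif, was in 7, or 9.33%, against 1.64% of genes. ACCGGAAGT, a motif of the GABP factor, was in 1, or 1.33%, against 1.21% of genes. These are descriptions of letters and not of bound sites. Windows of 3 promoters are shown because these members, of complexes IV and V and an assembly factor, fell in tumors under both labels and carry the motif, in capitals. They are chr5:115349076-115349155 on the minus strand for Cox6a1, chr5:108434405-108434484 on the minus strand for Atp5k and chr4:24897935-24898014 on the plus strand for Ndufaf4.
Cox6a1: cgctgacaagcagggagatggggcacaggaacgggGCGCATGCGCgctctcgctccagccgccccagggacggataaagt
Atp5k: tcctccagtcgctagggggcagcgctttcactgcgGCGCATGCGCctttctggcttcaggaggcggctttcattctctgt
Ndufaf4: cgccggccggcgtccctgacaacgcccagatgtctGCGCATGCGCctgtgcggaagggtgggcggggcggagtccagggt

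Nrf1 itself had a log2 fold change of 0.25 ± 0.08 in KO-labelled samples and 0.15 ± 0.12 in VC samples, tumor over culture (SE; edgeR, adjusted p = 0.032 and 0.30). Its mean level was 43.9 CPM in KO-labelled and 47.2 CPM in VC tumors, against 38.2 CPM in KO-labelled and 42.4 CPM in VC cultures. Atp5k and the factor Nrf1 were named here for their promoters, after their values were seen.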

How the data were processed

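RNA from 4T1 cultures and 4T1 tumors was depleted of ribosomal RNA with a KAPA Ribo-Erase kit, per the labels. The deposited values are raw counts per gene, 1 table for cultures and 1 for tumors. Tools named in the submitters' processing notes were featureCounts 1.4.4 for counting, STAR 2.3.0e and Trimmomatic 0.32, on build mm10, while strand setting, multi-mapping rule and annotation release are not given in the sources used here.

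Groups came from the labels, with 3 libraries each. Counts were tested with edgeR 4.0.16 (quasi-likelihood test after filterByExpr and TMM scaling) in R 4.3.3, fitted over all genes, with Benjamini-Hochberg adjusted p under 0.05 as a call. The interaction used all 12 libraries. SE is the absolute log2 fold change over the root of F. CPM used library totals, and RPKM used exonic lengths of GENCODE M21, which holds 37607 of the 39017 gene IDs. Replicates differed beyond sampling noise. The edgeR step was tested on simulated counts.

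Members and lists were chosen with earlier results of these data known. Named members were all mitochondrial genes and listed isoforms; in each comparison up to 2 called per complex and direction by smallest p, and the 5 largest rises and falls; the 10 of smallest interaction p; and up to 3 called genes per list. Alternatives were other scalings, filters, DESeq2 1.42.0, limma-voom 3.58.1, a fit of all libraries, a replicate block, chromosome medians taken out, thinned tumor libraries, a stricter threshold and each library left out. Counting error limits low genes such as Cox4i2.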

Additional observations from a re-analysis of the deposited data

Results flagged for a closer look

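Ndufa5, an accessory subunit of complex I, was the only member for which the KO-labelled minus VC difference was called different between tumors and cultures by a test of that difference. The interaction was 0.86 ± 0.20 on the log2 scale (SE; edgeR's quasi-likelihood test, Benjamini-Hochberg adjusted p = 0.0499). In tumors the difference was 0.29 ± 0.21 (adjusted p = 0.88), and in cultures it was -0.56 ± 0.06 (adjusted p = 1.5e-05). The gene lies on chromosome 6, where the median of all genes in culture was -0.45, and its culture difference was -0.11 (adjusted p = 0.20) with that median taken out. Over the alternatives its interaction kept its sign and ran from 0.67 to 0.97, with adjusted p from 0.0075 to 0.16. The call was lost without any 1 culture library or any 1 VC tumor. The part of the chromosome in the interaction was not tested.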

How the results depend on the processing

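The fall of nuclear members and the rise of mitochondrial members in tumors kept their direction under every alternative run, apart from single genes near 0. With only members that share no 50-base stretch, an alternative chosen after seeing the data, the log2 ratio of mitochondrial to nuclear counts differed by 1.06 for KO-labelled and 1.29 for VC samples, tumor minus culture. Without Atp5b, also chosen after seeing the data, the nuclear level differed by -0.60 and -0.79 in the same comparisons and by -0.037 between KO-labelled and VC cultures. Nuclear members called higher in tumors numbered 3 under the stricter filter for VC samples, and 3 at adjusted p under 0.01 and 3 to 7 with 1 library left out for KO-labelled samples, the 3 without KO-labelled culture 2 or 3. The lower call of mt-Nd3 in KO-labelled samples was 0 in the fit of all 12 libraries and at adjusted p under 0.01, and 0 to 1 with 1 library left out. In VC samples lower mitochondrial calls were 0 to 1, the 1 without POGZ_VC_8447.

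Between KO-labelled and VC cultures, 38 members were called. That count was 21 with chromosome medians taken out, 5 in the fit of all 12 libraries, where 1489 genes were called in place of 7523, and 25 at adjusted p under 0.01. Nuclear members called higher were 8, 1 and 9 under these alternatives, and those called lower were 12, 4 and 15. With 1 library left out they were 9 to 19 higher and 13 to 22 lower. Mitochondrial members called higher were 2 without a filter, 0 in the fit of all 12 libraries and 1 to 2 with 1 library left out. Those called lower were 2 without a filter and 0 to 1 with 1 library left out. With chromosome medians taken out Atp5c1 gave -0.038 and Ndufb5 -0.026.

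Values of mt-Nd1 near 0 changed sign. In cultures it was 0.0024 with the replicate block, 0.010 with RLE scaling, 0.0031 with upper-quartile scaling, 0.0062 with scaling without mitochondrial and structural RNA genes, 0.0040 with the stricter filter, 0.010 with DESeq2 and 0.0030 with limma-voom. Tumor over culture it was 0.024 with upper-quartile scaling and 0.036 with the stricter filter in KO-labelled samples, and -0.12 without a filter in VC samples. With 1 library left out, mt-Nd1 ran from -0.086 to 0.086 in cultures, from -0.11 to 0.036 in KO-labelled and from -0.056 to 0.10 in VC samples. In cultures mt-Co1 then ran from -0.087 to 0.061, mt-Nd2 from -0.041 to 0.11 and mt-Nd4l from -0.012 to 0.13.

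In KO-labelled against VC tumors, where edgeR called 0 genes, DESeq2 called 66 and the fit of all 12 libraries 63. In the interaction, the 1 member called, a nuclear one called higher, became 0 with RLE scaling, with scaling without mitochondrial and structural RNA genes, without a filter, with limma-voom and at adjusted p under 0.01. DESeq2 called 5 members and 953 genes, and 127 genes passed adjusted p under 0.01, against 381. With 1 library left out there were 0 to 5 members and 147 to 1588 genes, the highest without POGZ_KO_8454. The causes were not tested.

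Same-numbered cultures had correlations of -0.16, 0.05 and 0.07 between their deviations from the group means, so the numbers were not taken as pairing. With the replicate block 13 nuclear members were called higher and 21 lower.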
